A study of Mus musculus with 11 samples.

Results

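miR-203-3p, miR-205-5p, miR-31-5p and miR-184-3p are miRNAs best known from stratified (squamous) epithelia such as skin, esophagus and cornea. They were counted here in mouse feces, and they make up 4 of the 616 rows of the deposited count table. The first 3 were chosen by name, as miRNAs of squamous epithelium, and miR-184-3p was selected on its counts, for a single library in which it was high. Its level in that library is therefore a description and was not tested.

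The feces came from C57BL/6 mice at 3 phases of a colitis model in which drinking dextran sulfate sodium (DSS) damages the colon lining. The groups were before DSS (n = 4 libraries), day 5 of DSS, the acute phase (n = 3), and day 12, after 7 days off DSS (n = 4), called recovery. The labels name no allele, sex or age. The starting profile served as the only control, and no library came from untreated mice at the later times, so phase and sampling day cannot be told apart. The labels do not say whether libraries of a group came from separate mice or whether mice were pooled, so the tests measure the spread between these libraries, part of which may be technical.

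A miRNA is a short RNA that guides repression of mRNAs, mostly through bases 2 to 8, its seed. miR-203 promotes differentiation of keratinocytes as they leave the basal layer and represses p63, the transcription factor of basal cells. miR-205 is a miRNA of basal and progenitor cells of stratified epithelia and, with the miR-200 family, represses the ZEB factors of epithelial-mesenchymal transition. miR-31 is induced in wounded skin and in inflamed intestine. miR-184 is abundant in the corneal epithelium and is also known from lens, brain and testis. The gut lining below the esophagus and forestomach is a simple epithelium, while the anal canal is squamous again, so feces pass both kinds of tissue.

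The sequences below show that the 4 miRNAs are unrelated by seed. They were matched by name to RefSeq (build GRCm38.p6) and are written 5′ to 3′ with the seed in capitals.
miR-203-3p: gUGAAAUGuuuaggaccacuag
miR-205-5p: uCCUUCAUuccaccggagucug
miR-31-5p: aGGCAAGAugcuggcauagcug
miR-184-3p: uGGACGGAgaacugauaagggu
miR-203b-5p: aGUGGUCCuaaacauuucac
The 4 members have 4 distinct seeds, and no other mature miRNA of the RefSeq table has any of them. The row of miR-203b-5p is shown because it comes from the opposite strand of the same locus. Its 20 bases are the reverse complement of bases 1 to 20 of miR-203-3p.

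The 4 miRNAs come from 4 chromosomes. miR-203-3p lies on chromosome 12 at 112130927 to 112130948 (plus strand), in a hairpin that overlaps no other gene of the GENCODE vM21 annotation apart from the opposite-strand miR-203b locus. miR-205-5p lies on chromosome 1 at 193507503 to 193507524 (minus strand), in an exon of the long noncoding RNA gene 4631405K08Rik. miR-31-5p lies on chromosome 4 at 88910614 to 88910635 (minus strand), in an exon of the long noncoding RNA gene AL805899.1. miR-184-3p lies on chromosome 9 at 89802263 to 89802284 (minus strand), in a hairpin that overlaps no other annotated gene.

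The miRNA counts in the table summed to between 11749 and 40835 per library, so 3 counts, taken as the limit of what a library could show, stood for 73.5 to 255 CPM (counts scaled to the same total in each library, from its sum in the table). Confidence intervals given for single libraries are exact (Clopper-Pearson, 95%) and cover counting error only. The miRNAs listed for gut and simple epithelium were abundant in every library. Together, miR-192-5p, miR-194-5p, miR-215-5p, miR-148a-3p and 5 miRNAs of the miR-200 family held between 15.3% and 44.0% of the counts. Before-DSS library 2 stood apart from its group, with a median correlation of 0.853 with the others (log2 CPM), where those had 0.964 to 0.966. Recovery library 4 had the lowest value of all, 0.797, in a group that ran up to 0.849.

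**Figure D1:**
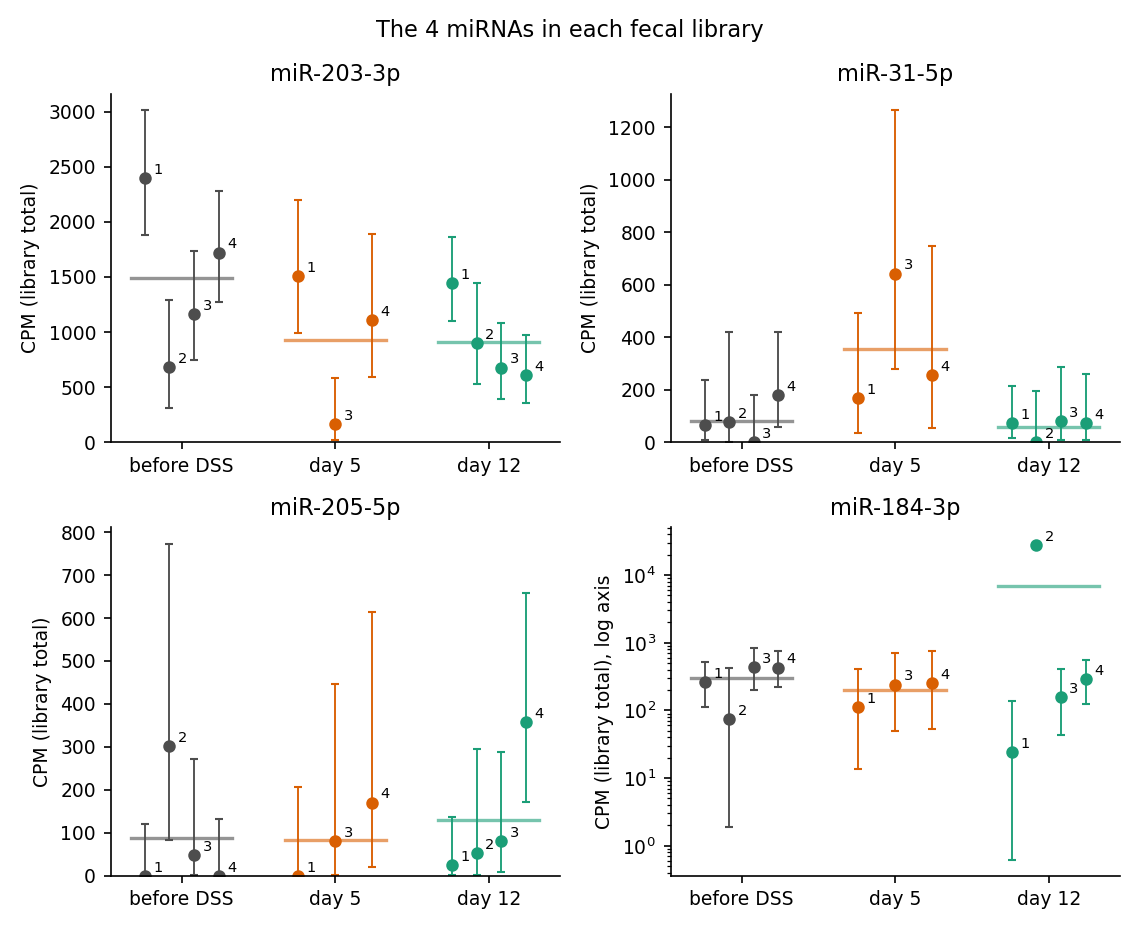
Level of each of the 4 miRNAs in every library (CPM of the library total; the panel of miR-184-3p has a log axis), with exact 95% intervals for counting error as bars, group means as horizontal lines and the deposited library numbers beside the points. miR-184-3p stands at 27514 CPM in recovery library 2 and at no more than 437 CPM in the other 10 libraries.

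Of the squamous miRNAs, miR-203-3p was the one with enough counts in enough libraries to be tested, and its level did not pass the test between any phases. It had 306 counts in all, at least 2 in each of the 11 libraries, and ranked at 81 of the 616 rows by total count. miR-31-5p had 29 counts, with its highest level on day 5. miR-205-5p, the miRNA most particular to stratified epithelium by its known biology, had 22 counts and none in 3 of the libraries. The other 3 members were below the filter on low counts, so 1 of 4 was tested in the fit over 137 rows. The label of a squamous epithelium set thus rests on the known biology of the names. In these feces 1 of the 3 named miRNAs was well above the limit of the counts. miR-31-5p and miR-205-5p held too few counts to show whether their levels moved with that of miR-203-3p.

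Before DSS, miR-203-3p had 73, 9, 24 and 48 counts in libraries 1 to 4, or 2400, 680, 1166 and 1722 CPM. On day 5 it had 27, 2 and 13 counts in libraries 1, 3 and 4, or 1511, 161 and 1106 CPM. On day 12 it had 59, 17, 17 and 17 counts in libraries 1 to 4, or 1445, 901, 678 and 609 CPM. The phases overlapped, and the spread within each was wide. Day 5 library 3 was the lowest of all, with an exact interval of 19.4 to 580.0 CPM, while before-DSS library 1 was the highest, with an interval of 1882 to 3017 CPM.

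The mean of miR-203-3p was 926 ± 693 CPM on day 5 (SD, n = 3) and 1492 ± 740 CPM before DSS (SD, n = 4). That is a log2 fold change of -1.12 ± 0.73 (SE), which did not pass in edgeR's quasi-likelihood test (adjusted p = 0.398, Benjamini-Hochberg over the 137 rows). Across all rows 0 of 137 (0%) passed in that comparison, with 34 at an unadjusted p under 0.05, 5 called by DESeq2 and 16 called with the library number as a block. Without day 5 library 3 the log2 fold change of miR-203-3p was -0.62, and without day 5 library 1 it was -1.83.

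On day 12 the mean was 908 ± 379 CPM (SD, n = 4), against 1492 ± 740 CPM before DSS (SD, n = 4). The log2 fold change of -0.79 ± 0.64 (SE) did not pass (edgeR adjusted p = 0.597), while 9 of 137 rows (6.57%) passed, or 15 with the library number as a block. It was -1.30 without recovery library 1 and -0.40 without before-DSS library 1. Between day 12 and day 5 it stood at 0.33 ± 0.72 (SE; edgeR adjusted p = 0.812), where 5 rows (3.65%) passed, or 14 with the block. The sign of that last value turned without day 5 library 3 (-0.18), without recovery library 1 (-0.18) and with library totals in place of TMM factors (-0.038). A joint test of all 3 phases gave an edgeR adjusted p of 0.469 for miR-203-3p, in a fit where 11 of 137 rows (8.03%) passed, or 22 with the block. From high to low mean CPM the phases ran before DSS, day 5 and day 12 (with TMM factors the last 2 changed places), and no neighbours in that order differed beyond their spread.

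The opposite-strand row miR-203b-5p had 25 counts in all. It averaged 47.0 ± 43.3 CPM on day 5 (SD, n = 3) and 67.2 ± 68.5 CPM on day 12 (SD, n = 4), against 154.9 ± 82.2 CPM before DSS (SD, n = 4). These levels rest on 2, 8 and 15 counts. miR-203-5p, the other arm of the hairpin, and miR-203b-3p had 2 counts each, both in before-DSS library 4. Those rows held the same counts in every library and also come from opposite strands of 1 stretch, so whether they are separate molecules was not tested.

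Across the 11 libraries the level of miR-203-3p followed that of several miRNAs of gut epithelium, and of some rows that were not on the gut list. Among 136 other tested rows, the nearest by Pearson's r of log2 CPM (TMM factors, prior count of 2) was miR-215-5p, a miRNA of intestinal and kidney epithelium, with r = 0.93 and Spearman's rho = 0.94. Next were miR-101b-3p (r = 0.88, rho = 0.92) and miR-192-5p (r = 0.88, rho = 0.86), an abundant miRNA of intestinal epithelium and liver. These values are descriptions. The libraries share their depth and scaling between rows, and with library totals alone r was 0.92 for miR-215-5p, 0.74 for miR-101b-3p and 0.80 for miR-192-5p.

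The likeness to miR-215-5p was of similar size in parts of the data. Without the 2 libraries farthest from the median of miR-203-3p (before-DSS library 1 and day 5 library 3) r was 0.89 over 9 libraries, and for deviations from the phase means it was 0.92. miR-215-5p had 28470, 14502, 20505 and 29638 CPM before DSS, 30047, 7467 and 15406 CPM on day 5, and 23852, 16063, 12882 and 19611 CPM on day 12, each in order of library number. Before-DSS library 2 and day 5 library 3 were the lowest of their phases for both miRNAs, and library 1 was the highest on day 12 for both. Other libraries differed in order. Recovery library 4 was the lowest of its phase for miR-203-3p but exceeded libraries 2 and 3 for miR-215-5p. Before DSS, library 1 was the highest for miR-203-3p and library 4 for miR-215-5p. There were between 11.9 and 46.5 counts of miR-215-5p for each count of miR-203-3p in a library. The highest of these ratios was in day 5 library 3, where miR-203-3p had 2 counts. miR-215-5p and miR-192-5p are closely related in sequence, as are miR-101b-3p and miR-101a-3p, so the authors' counting could have split reads between them.

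**Figure D2:**
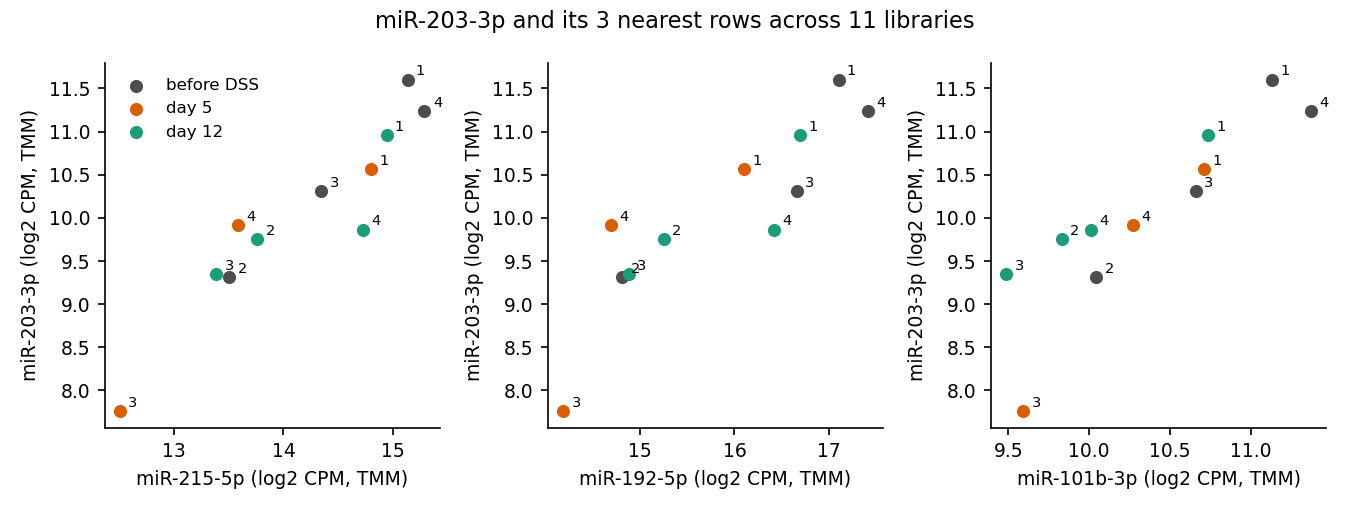
miR-203-3p (vertical axes) against its 3 nearest rows, miR-215-5p, miR-192-5p and miR-101b-3p (horizontal axes), as log2 CPM with TMM factors; each point is 1 of 11 libraries, coloured by phase and marked with the deposited library number. Pearson's r is 0.93, 0.88 and 0.88 in panel order, and day 5 library 3 is the lowest point for miR-203-3p in each panel.

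Of the 9 gut and simple epithelium miRNAs listed, 7 were among the 20 rows nearest to miR-203-3p, with r of 0.74 for miR-200a-3p, 0.73 for miR-148a-3p and 0.72 for miR-194-5p. miR-200b-3p and miR-200c-3p were far down the order, with r of 0.18 and 0.23. Nearness was not particular to the gut list. miR-182-5p, listed as a neural and eye miRNA, ranked at 7 with r = 0.75, while the other tested miRNAs of that list ranked between 36 and 107. None of the other squamous miRNAs had a high r with miR-203-3p. It was -0.44 for miR-205-5p (rho = -0.72), -0.29 for miR-31-5p (rho = 0.12) and 0.01 for miR-184-3p (rho = 0.16). The first 2 rest on sparse counts, so they cannot show whether those levels moved together. Skin-linked miRNAs were divided. miR-24-3p, linked to keratinocyte differentiation, had r = 0.70, while miR-125b-5p, a miRNA of skin stem cells that many mesenchymal tissues also express, had r = -0.59.

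None of the 9 gut and simple epithelium miRNAs passed the edgeR test in the fit of all 11 libraries with TMM factors and no block. miR-148a-3p on day 12 relative to before DSS stood there at a log2 fold change of -1.40 ± 0.43 (SE; edgeR adjusted p = 0.0803), and it passed in 5 alternatives: with library totals only (log2 fold change -1.34, edgeR adjusted p = 0.0103), with DESeq2 (-1.39, DESeq2 adjusted p = 0.0137), without before-DSS library 2 (-1.49, edgeR adjusted p = 0.0454), without recovery library 1 (-1.81, edgeR adjusted p = 0.0252) and with the library number as a block (-1.43, edgeR adjusted p = 0.0129). With the block, miR-429-3p was higher on day 12 than on day 5 (1.40, edgeR adjusted p = 0.0472). On day 5 relative to before DSS, where same-numbered libraries deviated together little, the block also called miR-148a-3p, miR-192-5p and miR-200a-3p lower (edgeR adjusted p = 0.0366, 0.0227 and 0.0227), while miR-203-3p stood at -1.46 and did not pass (edgeR adjusted p = 0.0676). Without the block, their median log2 fold change relative to before DSS was -0.80 on day 5 and -0.38 on day 12, where the median over all 137 rows was 0.03 and -0.02. On day 5, 8 of the 9 had negative values, and on day 12, 5 of the 9. As a share of all counts they made up 22.0% ± 8.18 on day 5 (SD, n = 3) and 22.3% ± 3.96 on day 12 (SD, n = 4), against 36.5% ± 7.64 before DSS (SD, n = 4). The value of miR-203-3p, -1.12 on day 5, lay between those of miR-215-5p (-0.80) and miR-192-5p (-1.55). In bulk feces, fewer shed cells of a type and less RNA per cell cannot be told apart.

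Of the 5 other stratified epithelium and skin miRNAs, 2 were tested and neither passed in any comparison, except that with the block miR-24-3p did on day 5 relative to before DSS (-1.21, edgeR adjusted p = 0.0486). Without it, miR-24-3p had log2 fold changes of -0.97 ± 0.41 (SE) on day 5 and -0.22 ± 0.37 (SE) on day 12 relative to before DSS, with edgeR adjusted p of 0.184 and 0.806. miR-125b-5p had 0.35 ± 0.52 (SE) and -0.35 ± 0.49 (SE), with edgeR adjusted p of 0.769 and 0.738. miR-34c-5p, miR-210-3p and miR-34a-5p were below the filter, with 80, 48 and 18 counts in all. miR-199a-3p, the 1 tested miRNA of 3 listed for hair follicle and dermis, did not pass either, with a value of -0.70 (log2) on day 12 relative to before DSS (edgeR adjusted p = 0.638).

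**Figure D3:**
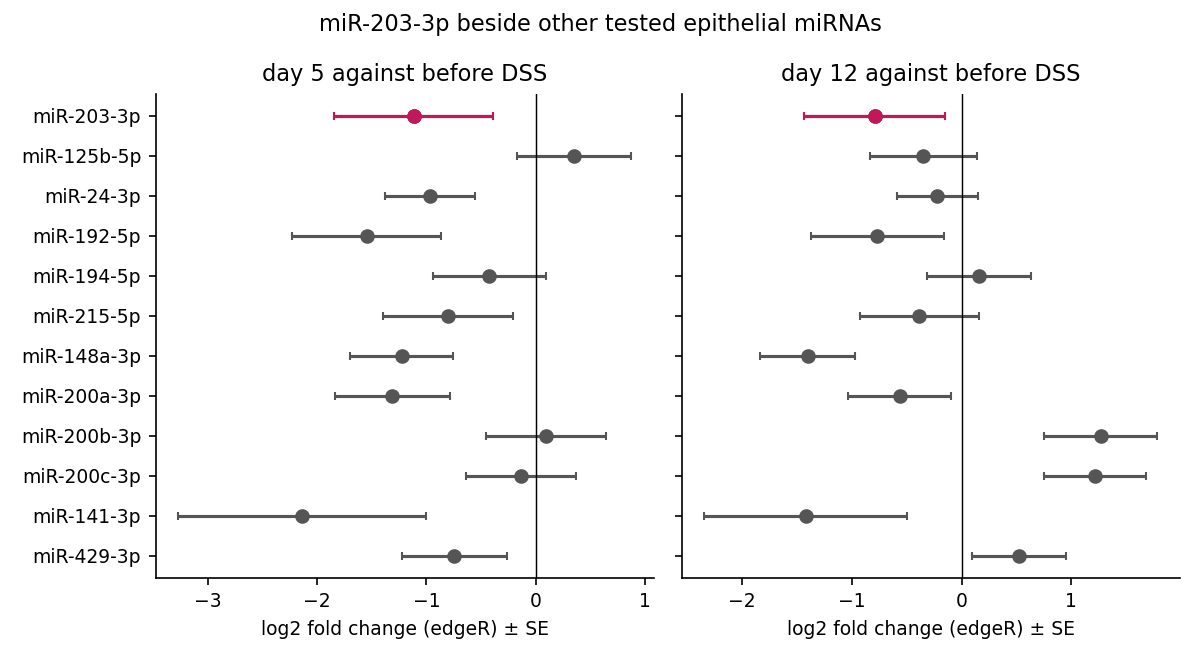
log2 fold change with its SE (edgeR, all 11 libraries) of miR-203-3p (top, in colour) and the other tested miRNAs of the skin and gut epithelium lists, for day 5 (left) and day 12 (right) against before DSS. miR-203-3p stands at -1.12 and -0.79, and none of the miRNAs drawn passed the adjusted threshold in this fit.

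miR-31-5p was highest on day 5, at counts too low for the filter. Before DSS it had 2, 1, 0 and 5 counts in libraries 1 to 4, or 65.8, 75.5, 0 and 179 CPM. On day 5 it had 3, 8 and 3 counts in libraries 1, 3 and 4, or 168, 642 and 255 CPM. On day 12 it had 3, 0, 2 and 2 counts in libraries 1 to 4, or 73.5, 0, 79.8 and 71.7 CPM. Every day 5 library lay above every day 12 library, while day 5 and before DSS overlapped, since before-DSS library 4 exceeded day 5 library 1. Rows of at least 20 counts had groups that did not overlap in 12.9% of cases between day 12 and day 5, in 17.4% between day 5 and before DSS and in 8.48% between day 12 and before DSS.

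The pooled level of miR-31-5p was 3.83 times as high on day 5 as before DSS, 14 counts against 8 (exact 95% interval 1.50 to 10.5, counting error only). Pooled, day 12 was 0.187 times day 5, with 7 counts against 14 (0.0638 to 0.494), and 0.715 times before DSS (0.221 to 2.26). In the edgeR fit without a filter on low counts, miR-31-5p did not pass. Day 5 stood 1.53 ± 0.96 (log2, SE) above before DSS (adjusted p = 0.630), day 12 had -1.96 ± 0.97 relative to day 5 (adjusted p = 0.472, unadjusted p = 0.0424), and day 12 had -0.43 ± 0.98 relative to before DSS (adjusted p = 0.932). Day 5 library 3 held 8 of the 14 counts. Without it the log2 ratio of pooled CPM was 1.22 for day 5 against before DSS, where it was 1.94 with all libraries, and -1.70 for day 12 against day 5, where it was -2.42. Without before-DSS library 4, which held 5 of the 8 counts before DSS, the log2 ratio for day 5 was 2.83, and that for day 12 was 0.41, where it was -0.48 with all libraries. From high to low mean CPM the phases ran day 5, before DSS and day 12.

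The same day 5 library that had the most miR-31-5p had the least miR-203-3p. In day 5 library 3, miR-203-3p made up 18.2% of the summed counts of miR-203-3p, miR-205-5p and miR-31-5p, where in the other 10 libraries it made up between 58.6% and 97.3%. These were 2 of 11 counts. miR-31-3p, the other arm of the hairpin, had no count among 92108 before DSS, so up to 32.6 CPM could have been missed. There were 2 counts in 42075 on day 5 and 4 in 112664 on day 12, with 1 count in each recovery library.

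miR-205-5p stayed near the limit of the counts in all phases. Before DSS it had 0, 4, 1 and 0 counts, or 0, 302, 48.6 and 0 CPM. On day 5 it had 0, 1 and 2 counts, or 0, 80.3 and 170 CPM. On day 12 it had 1, 1, 2 and 10 counts, or 24.5, 53.0, 79.8 and 359 CPM. The phases overlapped. The highest libraries before DSS (2) and in recovery (4) also had the lowest median correlation with their groups over all miRNAs. Recovery library 4 was little apart, at 0.797 where the others of its group had 0.810 to 0.849. Whether the level of miR-205-5p is linked to this was not tested.

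Pooled, miR-205-5p on day 12 was 2.29 times its level before DSS, 14 counts against 5 (exact 95% interval 0.779 to 8.12, counting error only). Day 5 was 1.31 times before DSS, 3 counts against 5 (0.204 to 6.75), and day 12 was 1.74 times day 5 (0.486 to 9.46). It did not pass in the edgeR fit without a filter, with an adjusted p of 0.665 (day 12) and 1 (day 5) relative to before DSS and of 0.754 between day 12 and day 5. Without recovery library 4, which held 10 of the 14 counts, the log2 ratio for day 12 was -0.20 against before DSS and -0.60 against day 5. Without before-DSS library 2, which held 4 of the 5 counts of its group, the value for day 12 against before DSS was 3.29, and without both libraries it was 1.90, so its sign turned with the libraries kept. No difference in miR-205-5p was detectable at this depth.

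miR-184-3p had 570 counts in all, of which 519 (91.1%) were in recovery library 2. Before DSS it had 8, 1, 9 and 12 counts in libraries 1 to 4, or 263, 75.5, 437 and 431 CPM. On day 5 it had 2, 3 and 3 counts, or 112, 241 and 255 CPM. On day 12 it had 1, 519, 4 and 8 counts, or 24.5, 27514, 160 and 287 CPM. In recovery library 2 it made up 2.75% of all counts (exact 95% interval 2.52 to 2.99) and was the row of rank 6. In the other 10 libraries it ranked between 101 and 272.

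The value in recovery library 2 was 62.9 times the next highest library and 111 times the median of the other 10, a description of what the miRNA was chosen for. The recovery mean of 6996 ± 13679 CPM (SD, n = 4) therefore describes no library, and without library 2 it was 157 ± 131 CPM (SD, n = 3). Means were 203 ± 79.0 CPM on day 5 (SD, n = 3) and 302 ± 171 CPM before DSS (SD, n = 4). With recovery library 2 left out, 13 counts on day 12 stood against 30 before DSS, a ratio of 0.426 (exact 95% interval 0.204 to 0.841, counting error only), and the groups overlapped. Against the 8 counts of day 5 the ratio was 0.729 (0.280 to 2.03). Both pooled ratios lean on recovery library 1, the deepest, which held 1 of the 13 counts in a total of 40835.

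No other squamous miRNA was raised in recovery library 2. It held 17 counts of miR-203-3p (901 CPM), 1 of miR-205-5p and 0 of miR-31-5p. Of the lists of cell type markers, the skin miRNAs other than the members made up 0.615% of its counts and ranked at 9 from the top of 11 libraries, hair follicle and dermis 0.0636% (7), neural and eye 3.85% (5), muscle 0.111% (2) and liver 0.133% (5). The leukocyte list made up 0.610% (4), the erythroid list 1.35% (6) and the gut and simple epithelium list 20.1% (8). None of these lists had its highest level in that library.

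A level concentrated in 1 library was uncommon in the table. Of the 176 rows with at least 10 counts in their highest library, 5 had there at least 5 times the CPM of the next library. miR-184-3p, which was chosen for this trait, was the only one of the 5 with a miRNA name. The other 4 were numbered rows without one. This depends on the cut: at 3 times the next library there were 13 such rows, of which 8 were numbered, and miR-3470a stood at 4.84 times. Over the 176 rows the median ratio of the highest library to the next was 1.23, and for miR-203-3p before-DSS library 1 led by 1.39 times. The row nearest to miR-184-3p in pattern was novel_285 (r = 0.63, rho = 0.22), followed by let-7d-5p (r = 0.62, rho = 0.69) and miR-185-5p (r = 0.46, rho = 0.41). With 1 library so far from the rest, r describes mostly that library. The rho values use ranks, and outside that library miR-184-3p had between 1 and 12 counts.

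**Figure D4:**
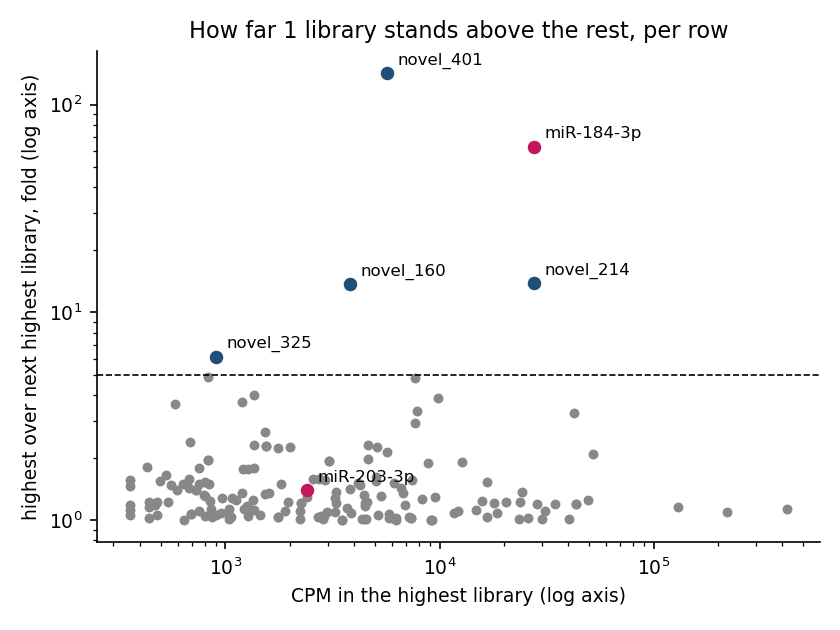
For each of the 176 rows with at least 10 counts in their highest library, the CPM there (horizontal, log axis) and its ratio to the next highest library (vertical, log axis; a next library at 0 is drawn at the value of 1 count). The dashed line marks 5-fold, and miR-184-3p lies above it at 62.9-fold.

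Together the 4 miRNAs made up 0.157% ± 0.0384 of counts on day 5 (SD, n = 3) and 0.809% ± 1.36 on day 12 (SD, n = 4), against 0.196% ± 0.0709 before DSS (SD, n = 4). Without miR-184-3p the shares were 0.136% ± 0.0423 on day 5, 0.109% ± 0.0311 on day 12 and 0.166% ± 0.0650 in the before-DSS libraries. miR-203-3p held most of them in 10 of 11 libraries. The deposited counts held no row named miR-205-3p or miR-184-5p.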

How the data were processed

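Small RNA from feces was sequenced in 11 libraries. Per the labels' protocols, RNA was taken from homogenized feces with a mirVana kit, TruSeq small RNA libraries were read on a HiSeq instrument, and ACGT101-miR dropped adapter dimers, low complexity reads, other common RNA classes and repeats. The aligner, miRNA release and build are not given in the labels used here. The authors deposited raw read counts for 616 rows, which were used as they stand; 11 further columns hold the same counts scaled to the same total per library and were not used. Columns of day 12 match sample titles by number, and those of the other phases were assigned to their group only. Libraries are named by the number in the deposited column.

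Counts were tested with edgeR 4.0.16 in R 4.3.3 (quasi-likelihood F-test, TMM factors of 0.73 to 1.30, all 11 libraries in a fit on phase, Benjamini-Hochberg over 137 rows past edgeR's default filter on low counts, threshold 0.05). SEs come from the F statistic. The fit was tested on simulated data, where it called the raised rows and also some unchanged ones. The unchanged rows were a larger share of the calls than the threshold of 0.05 allows, so the numbers of rows that passed may include false calls. Members below the filter were compared by pooled CPM with an exact conditional interval (scipy 1.17.1). Counts of libraries in a group differed beyond sampling noise (chi-square per degree of freedom at least 3.85). Alternatives were RLE factors, library totals, 2 other filters, DESeq2 1.42.0, fits of 2 groups, a replicate block on the column number, and each library left out. The labels state no pairing. Deviations of same-numbered libraries from their phase means had r of 0.15 to 0.51 between day 12 and before DSS. They had r of 0.10 to 0.35 between day 12 and day 5, and of 0.10, 0.13 and -0.10 between day 5 and before DSS. Libraries of different numbers were not compared in this way, so these values cannot show pairing, and the block stands as an alternative only.

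The members, lists and tests were chosen with earlier results of these data known. Named rows were the members, the other arms of their hairpins, up to 4 members a list by abundance, the 3 rows nearest in pattern to each member with at least 30 counts, and rows with at least 10 counts and 5 times the next library; further list members were named after their values were seen.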

Additional observations from a re-analysis of the deposited data

Results flagged for a closer look

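The 4 miRNAs before DSS and on day 12 form 8 groups of 4 libraries. miR-184-3p on day 12 was chosen for its single high library, so its distance from the others is a description. Of the other 7 groups, 3 held a library far from the others by Dixon's criterion. That criterion flags about 1 in 20 groups by chance where values are normally distributed. These 3 groups hold low counts, some of them 0, so that rate does not carry over and no excess was shown. miR-184-3p stood at 27514 CPM (519 counts) in recovery library 2, with a gap to the nearest library of 0.990 of the group's range. miR-205-5p stood at 359 CPM (10 counts) in recovery library 4, with a gap of 0.835 of the range, and at 302 CPM (4 counts) in before-DSS library 2, with a gap of 0.839. miR-31-5p stood at 0 CPM in recovery library 2, with a gap of 0.899 below the others, which had 2 or 3 counts each, so that value lies within the counting error. The floor of 3 counts in that library is 159 CPM. Day 5 has 3 libraries and was not screened in this way.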

How the results depend on the processing

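The log2 fold change of miR-203-3p kept its sign and stayed short of the threshold in 19 of 19 alternatives for day 5 and for day 12 against before DSS, with edgeR or DESeq2 adjusted p of 0.0676 to 0.770 and 0.320 to 0.857. Leaving out 1 library at a time, it ran from -1.83 to -0.62 for day 5 and from -1.30 to -0.40 for day 12. For day 12 against day 5 it ran from -0.18 to 1.04 and turned sign in 3 of 19 alternatives: without day 5 library 3 (-0.18), without recovery library 1 (-0.18) and with library totals only (-0.038). With the replicate block, on the number in the column name, it was -1.46, -0.72 and 0.74 for day 5 and day 12 against before DSS and day 12 against day 5 (edgeR adjusted p = 0.0676, 0.320 and 0.331), so the block changed no call of it. For any difference among phases its adjusted p ran from 0.327 to 0.791 with 1 library left out and was 0.0968 with the block.

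The log2 ratio of pooled CPM of miR-205-5p ran, with 1 library left out, from -0.72 to 2.49 for day 5 against before DSS, from -0.20 to 3.29 for day 12 against before DSS and from -0.60 to 1.91 for day 12 against day 5. With before-DSS library 2 and recovery library 4 both left out, an alternative chosen after seeing the data, they were 2.49, 1.90 and -0.60. Those of miR-31-5p ran from 1.22 to 2.83, from -0.85 to 0.41 and from -2.87 to -1.70. Over all rows, calls ran from 0 to 16 for day 5 against before DSS, 5 to 18 for day 12 against before DSS, 1 to 21 for day 12 against day 5 and 7 to 29 for any difference. At 3 and 10 times the next library in place of 5, 13 and 4 rows stood high in 1 library. Depth limits miR-205-5p and miR-31-5p: most of their libraries hold no more than 3 counts.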

Other observations

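The other 4 rows with 1 library at least 5 times the next were numbered rows with no miRNA name. novel_401 had all of its 158 counts in recovery library 4 (5665 CPM). novel_214 had 326 counts in day 5 library 4 (27747 CPM, 13.8 times the next library), and novel_160 had 45 counts there (3830 CPM, 13.7 times). novel_325 had 17 counts in recovery library 2 (901 CPM, 6.13 times), the library in which miR-184-3p was high.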
